A study of Homo sapiens with 12 samples.

Results

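Desmosomes are spot-like junctions that fasten neighbouring epithelial cells to each other, and the genes described here encode their cadherins and their plaque proteins: the desmogleins DSG1, DSG2 and DSG3, the desmocollins DSC1, DSC2 and DSC3, desmoplakin (DSP), plakoglobin (JUP) and the plakophilins PKP1 and PKP3. They were chosen by symbol among the entries on the primary chromosomes, with earlier results of these data known, and they make up 10 of the 46931 genes in the table. Of the 10, 9 passed the filter on low counts. DSC1 did not, and DSG1 and PKP1 passed it only through the libraries in which YAP and TAZ had been knocked down.

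Messenger RNA was sequenced in MCF10A, an immortalised, non-tumorigenic human mammary epithelial line of wild-type genotype, kept in medium with horse serum, insulin, hydrocortisone and epidermal growth factor. Cells received a negative control siRNA at 22 nM or siRNA sets at 11 nM against YAP and TAZ, transcriptional coactivators encoded by YAP1 and WWTR1. After 48 h they were given DMSO or 5 µM of XMU-MP1, which blocks the Hippo pathway kinases MST1 and MST2, and were harvested 6 h later. The groups are control siRNA with DMSO (siC_DMSO), control siRNA with XMU-MP1 (siC_XMU), YAP and TAZ siRNA with DMSO (siYT_DMSO) and YAP and TAZ siRNA with XMU-MP1 (siYT_XMU), with 3 libraries a, b and c each. All groups came from a single cell line, and nothing in the labels says that the letters stand for separate cultures, so the p-values reflect the spread among these samples, which may be technical.

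Desmogleins and desmocollins span the gap between cells, and bind partners on the neighbouring cell. Inside the cell their tails bind plakoglobin and the plakophilins, and desmoplakin links this plaque to keratin filaments. In stratified epithelia DSG2 and DSC2 are known as broadly expressed forms, DSG3 and DSC3 as forms of the basal layers, and DSG1, DSC1 and PKP1 as forms that increase as keratinocytes leave the basal layer.

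Depth was 46901372 to 67953633 counts in the 6 control siRNA libraries and 25246464 to 60832492 in 5 of the 6 knockdown libraries. Library c of siYT_XMU stood apart, with 8243351 counts, of which ribosomal RNA took 35.0%, and mitochondrial ribosomal RNA alone 26.4%. The share of all ribosomal RNA moved with the knockdown in the other libraries too. It was 1.02 to 2.52% (median 1.26%) in the 6 control siRNA libraries and 1.86 to 8.35% (median 3.64%) in the 5 other knockdown libraries. In every library most of it was mitochondrial, and its part in the results was not tested. The siRNA labels were checked on YAP1, whose level in siC_DMSO was 201, 223 and 193 CPM (counts scaled to library size by the trimmed mean of M values, TMM). Its level in siYT_DMSO was 12.6, 9.09 and 7.84 CPM, and with XMU-MP1 it was 132, 135 and 142 CPM against 6.63, 3.81 and 5.39 CPM. WWTR1 was at 24.0 to 60.3 CPM in the control siRNA libraries and at 0 to 4.47 CPM in the knockdown libraries. The 6 markers of mammary epithelium were all detected, with a summed level of 8300 to 9198 CPM in siC_DMSO and 2488 to 3982 CPM in siYT_DMSO. With XMU-MP1 the sum was 6906 to 9376 CPM in siC_XMU and 3527 to 5041 CPM in siYT_XMU. These markers did not all move together. In both arms EPCAM, KRT5, KRT8 and KRT18 were called lower after the knockdown, CDH1 was called higher and KRT14 was not called (edgeR). Fibroblast markers summed to 11.3 to 24.2 CPM in siC_DMSO and 22.8 to 62.0 CPM in siYT_DMSO. With XMU-MP1 they summed to 15.8 to 26.4 CPM in siC_XMU and 23.0 to 132 CPM in siYT_XMU. Markers of endothelium, cardiomyocytes and melanocytes, other cell types that hold desmosomal proteins or could be mixed in, reached at most 8.49, 4.46 and 2.28 CPM in any library, and ACTN2 and TYR were at 0 in all of them. Cardiomyocyte markers summed to 0.217 to 1.09 CPM in siC_DMSO and 1.72 to 4.46 CPM in siYT_DMSO, and to 0.926 to 1.32 CPM in siC_XMU and 0.829 to 3.90 CPM in siYT_XMU. Endothelial markers summed to 1.91 to 3.82 CPM and 0.918 to 2.10 CPM in DMSO, and to 0.922 to 1.24 CPM and 1.26 to 8.49 CPM with XMU-MP1. TNNT2, cardiac troponin T, was called higher after the knockdown in both arms, at a mean of 1.38 CPM in siYT_DMSO and 1.77 CPM in siYT_XMU, and the endothelial PECAM1 and VWF were called in XMU-MP1 and not in DMSO, at a mean of 4.73 and 0.463 CPM in siYT_XMU (edgeR, difference between arms not called). Leukocyte markers summed to 24.4 to 53.6 CPM in the DMSO libraries, 7.19 to 14.9 CPM in siC_XMU and 22.7 to 67.5 CPM in siYT_XMU. Most of the sum in siC_DMSO was CD14 (mean 42.9 CPM), while PTPRC and CD3E had no count in any control siRNA library. CD14 was called lower with XMU-MP1 in control siRNA (log2 fold change -2.08, edgeR). In XMU-MP1 the knockdown called CD14 (1.74) and ITGAM (5.36) higher. The difference between arms was called for 1 of the 2 leukocyte markers tested. The part of these marker levels in the results below was not tested. In bulk RNA, fewer cells of a type and less RNA per cell cannot be told apart.

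All 6 cadherin genes lie in a single cluster on chromosome 18, which spans 559.6 kb in the table's build GRCh38.p13. The desmocollins stand on the minus strand, DSC3 at 30989365 to 31042815, DSC2 at 31058840 to 31102421 and DSC1 at 31129236 to 31162856. The desmogleins follow on the plus strand, DSG1 at 31318160 to 31359246, DSG3 at 31447741 to 31478712 and DSG2 at 31498177 to 31549008. The plaque genes are scattered: DSP lies on chromosome 6 at 7541671 to 7586714, JUP on chromosome 17 at 41754607 to 41786768, PKP1 on chromosome 1 at 201283452 to 201332993 and PKP3 on chromosome 11 at 392596 to 404908.

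The start regions of the desmogleins differ in composition, and they are shown because neighbouring genes of this family moved in opposite directions after the knockdown. RefSeq promoter windows of GRCh38.p14, from 250 bases before to 50 bases after a gene's start, were matched for 9 of the 10 genes (11 windows). The start of a window is RefSeq's, and in DSC3, JUP and PKP1 and in the second windows of DSC2 and JUP it lies inside the gene interval given above, by 73 bases in DSC3. Guanine and cytosine made up 45.7% of the DSG1 window and 44.0% of the DSG3 window, against 76.7% in DSG2 and a median of 58.7% over all 35116 windows. Other members that rose held 77.0% (DSP), 67.3% (PKP1), 65.3% and 66.7% (JUP) and 60.7% and 65.7% (DSC2). A high share was thus not particular to DSG2, and its relation to the changes was not tested. DSG1 and DSG3 shared a run of 20 bases, printed in capitals, which was found in 2 of the 35116 windows. The next longest run shared by windows of different members was 11 bases. The run begins 120 bases before the start of DSG1 and 78 bases before the start of DSG3. The last 150 bases before each start are as follows, 5′ to 3′ on the gene's strand.
DSG1, chr18:31318010-31318159, plus strand: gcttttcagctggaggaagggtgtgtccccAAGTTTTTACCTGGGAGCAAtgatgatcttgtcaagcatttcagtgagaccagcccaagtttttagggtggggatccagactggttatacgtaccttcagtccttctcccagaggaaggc
DSG3, chr18:31447591-31447740, plus strand: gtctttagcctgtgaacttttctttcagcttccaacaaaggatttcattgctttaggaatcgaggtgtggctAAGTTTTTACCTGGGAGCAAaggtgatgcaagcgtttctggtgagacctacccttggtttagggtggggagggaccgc
DSG2, chr18:31498027-31498176, plus strand: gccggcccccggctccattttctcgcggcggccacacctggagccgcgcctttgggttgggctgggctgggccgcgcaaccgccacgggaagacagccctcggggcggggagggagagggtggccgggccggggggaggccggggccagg

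DSC3 and DSP are the members whose windows hold the core of the Grainyhead motif, CCGGTT on either strand, and are shown for that reason, since several Grainyhead genes changed strongly in these samples. The core, in capitals below, begins 87 bases before the window's start in DSC3, which is 14 bases before the gene interval, and, on the opposite strand, 92 bases before the start of DSP. It occurs in 7.23% of all windows, so a match describes the letters of the window only.
DSC3, chr18:31042743-31042892, minus strand: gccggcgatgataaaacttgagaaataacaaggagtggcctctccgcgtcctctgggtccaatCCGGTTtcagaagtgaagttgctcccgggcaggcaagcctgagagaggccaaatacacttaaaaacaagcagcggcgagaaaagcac
DSP, chr6:7541521-7541670, plus strand: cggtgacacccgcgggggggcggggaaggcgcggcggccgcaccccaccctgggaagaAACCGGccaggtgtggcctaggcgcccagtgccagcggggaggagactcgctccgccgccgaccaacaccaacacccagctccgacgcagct

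A GC box (GGGCGG, in 45.0% of all windows) was present in windows of DSG2, DSC2, DSP, JUP and PKP1. The p53 family motif, held by 6.63% of windows, was matched in DSG3 218 bases before the start. In DSC3 it was matched 57 bases before the window's start, which is 16 bases inside the gene interval. The TATA box TATAAA (11.5% of windows), the TEAD motif GGAATG (14.0%) and the AP-1 motif TGANTCA (7.71%) were in none of the 11 member windows on either strand. The p53 family motif in DSC3 does not overlap its Grainyhead core.

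The first comparison asked what the loss of YAP and TAZ did to the desmosomal genes. In DMSO, the knockdown libraries had 3.26 to 4.04 times as much mRNA of desmoplakin, DSG3 and plakoglobin and 10.2 times as much of DSC2, while DSG2 fell to 0.395 of its control level. Of the 9 genes tested, 7 rose (PKP1, DSC2, DSP, JUP, DSG3, PKP3 and DSG1), DSG2 fell and DSC3 was not called, at an adjusted p under 0.05 (edgeR quasi-likelihood test, Benjamini-Hochberg over 18143 genes). Over all genes tested, 16.1% were called higher and 16.0% lower. DSG1 and PKP1 could only pass the filter by being high after the knockdown, so their calls add nothing to that count, and without them 5 rose. In libraries with XMU-MP1 the same 7 genes were called higher (5 without DSG1 and PKP1) and DSG2 lower, against 17.7% and 18.6% of all genes.

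**Figure D1:**
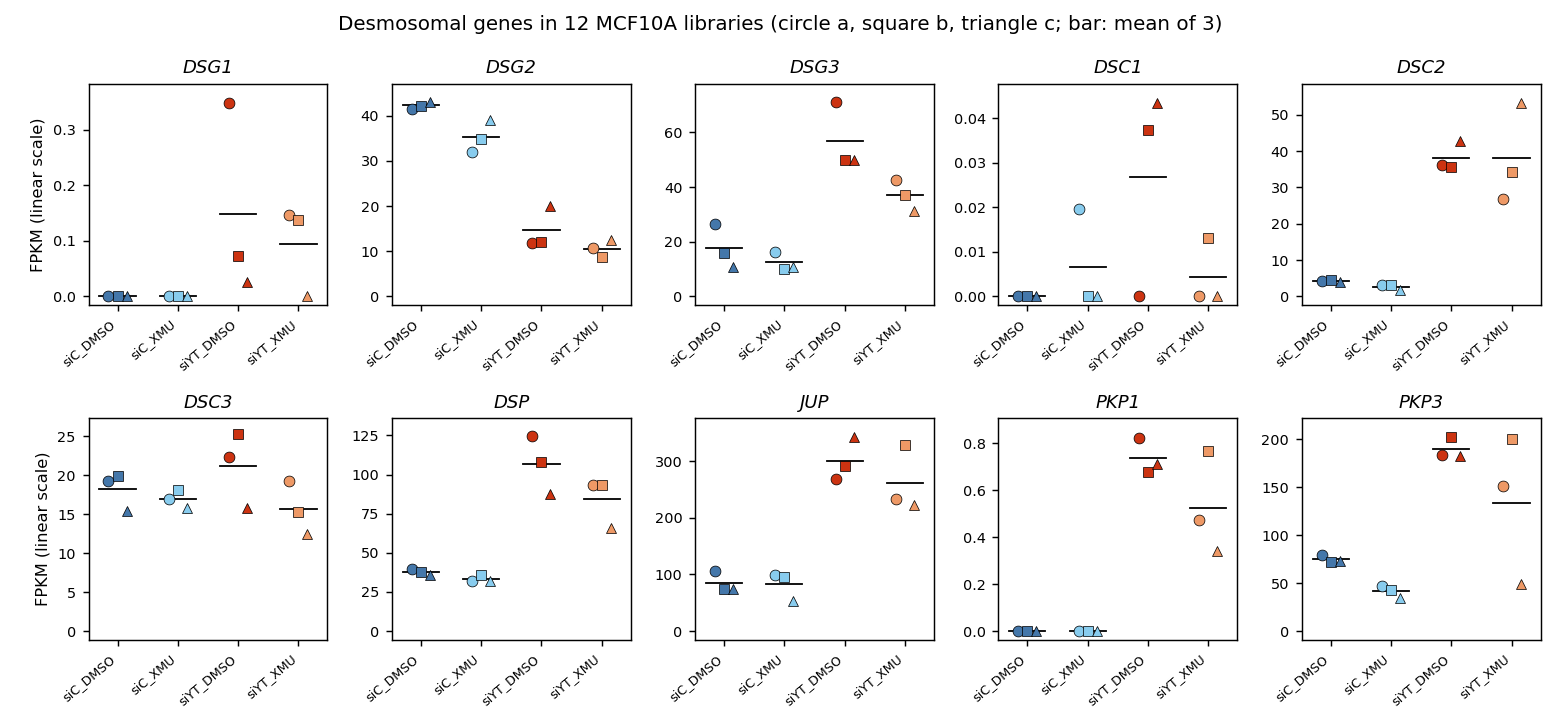
Level of each of the 10 genes in FPKM (fragments per kilobase of transcript, scaled to depth, linear axes that differ between panels) in the 12 libraries; circles, squares and triangles are libraries a, b and c and the black bar is the mean of 3. DSG3, DSC2, DSP and JUP lie higher in every knockdown library than in every control siRNA library, DSG2 lies lower, and DSC1, DSG1 and PKP1 stay under 1 FPKM.

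Among the desmogleins, DSG2, the form common to most epithelia, was the member that fell. In siC_DMSO the 3 libraries held 212, 218 and 222 CPM, and in siYT_DMSO they held 74.9, 67.0 and 116 CPM, with library c the highest of the knockdown libraries. The log2 fold change was -1.34 (SE 0.27, adjusted p 0.00278, edgeR). In siC_XMU it was at 179, 191 and 204 CPM and in siYT_XMU at 68.9, 61.4 and 130 CPM, and again the groups did not overlap. The log2 fold change there was -1.15 (SE 0.27, adjusted p 0.00652, edgeR).

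DSG3, the basal desmoglein and the main antigen of pemphigus vulgaris, rose. Its levels were 132, 79.4 and 54.9 CPM in siC_DMSO and 438, 271 and 282 CPM in siYT_DMSO, so the lowest knockdown library was above the highest control library. The log2 fold change was 1.89 (SE 0.32, adjusted p 0.000827, edgeR). Under XMU-MP1 the control siRNA libraries held 89.2, 54.5 and 55.8 CPM and the knockdown libraries 270.2, 254 and 320.1 CPM, a log2 fold change of 2.08 (SE 0.33, adjusted p 0.000453, edgeR). The spread between control libraries, with library a the highest in both control groups, was wider for DSG3 than for DSG2.

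DSG1, a desmoglein of the upper epidermal layers, had no count in any of the 6 control siRNA libraries. It was at 2.75, 0.522 and 0.199 CPM in siYT_DMSO, from 66, 27 and 12 counts, and at 1.20, 1.22 and 0 CPM in siYT_XMU. Against a floor of 3 counts per control library its mean was at least 27.7-fold higher in DMSO and at least 15.3-fold higher in XMU-MP1. Whole numbers that are multiples of 4 pile up among the low counts of the table (11489 entries of 4 against 3674 of 3), and with a floor of 12 counts the bounds were 6.92-fold and 3.83-fold. Library a carried the mean in DMSO, and without it the bounds were 8.61-fold and 2.15-fold for 3 and 12 counts, while without library c of siYT_XMU those in XMU-MP1 were 23.0-fold and 5.75-fold. The edgeR call (adjusted p 0.0110 in DMSO, 0.0138 in XMU-MP1) was lost in limma on log2(FPKM + 0.1), with adjusted p 0.0931 and 0.153. That call is no separate support, since DSG1 passed the filter only by being high after the knockdown. Library c of siYT_XMU overlapped the controls at 0, and at its depth a count of 0 allows up to 0.622 CPM.

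Among the desmocollins, DSC2 showed the largest change of the members with counts in every library. It rose from 48.1, 50.9 and 44.8 CPM in siC_DMSO to 495, 431 and 534 CPM in siYT_DMSO. The log2 fold change was 3.34 (SE 0.41, adjusted p 8.12e-05, edgeR). Under XMU-MP1 it stood at 36.8, 38.0 and 19.3 CPM with control siRNA and at 376, 519.8 and 1209 CPM with the knockdown, a log2 fold change of 4.48 (SE 0.43, adjusted p 1.82e-05, edgeR), or 22.4-fold. The value of 1209 CPM is that of the shallow library c, and without it the log2 fold change was 3.83 (adjusted p 9.58e-06).

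DSC3, a desmocollin of basal cells and in control cells the more abundant one, was not called. It was at 132, 139 and 107 CPM in siC_DMSO and 189.5, 190.0 and 123 CPM in siYT_DMSO, where library c lay among the controls. The log2 fold change was 0.41 (95% interval 0.00394 to 0.818, adjusted p 0.116, edgeR). In XMU-MP1 it was 128, 134 and 111 CPM with control siRNA against 168, 144 and 176 CPM, and although these do not overlap the log2 fold change of 0.38 (95% interval -0.02 to 0.79, adjusted p 0.129, edgeR) did not pass. Its direction there depended on the scale, since limma on log2(FPKM + 0.1) gave -0.14. In DMSO the call hung on library c of siYT_DMSO, without which the log2 fold change was 0.59 (adjusted p 0.0276).

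DSC1, the desmocollin of the outer epidermis, was not tested. Its counts were 0 in siC_DMSO, 5, 0 and 0 in siC_XMU, 0, 8 and 12 in siYT_DMSO and 0, 4 and 0 in siYT_XMU, so most libraries of every group were near or at 0.

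Neighbouring genes of the cluster thus moved in different directions. DSG3 at 17.7 FPKM and DSG2 at 42.3 FPKM in siC_DMSO are adjacent genes on the plus strand, and in siYT_DMSO they stood at 56.9 and 14.7 FPKM. DSC2 and DSC3 are adjacent on the minus strand and went from 4.29 and 18.2 FPKM to 38.2 and 21.2 FPKM. DSG4, which lies between DSG1 and DSG3, had 4 counts in 1 library and none elsewhere. The antisense genes DSCAS and DSG1-AS1 had no count, and DSG2-AS1 had at most 20.

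These opposite changes altered which cadherin made up most of each family's mRNA. DSG2 held 71.2% ± 9.47 (SD, n = 3) of the summed desmoglein FPKM in siC_DMSO and 20.8% ± 7.29 (SD, n = 3) in siYT_DMSO. In the XMU-MP1 groups it held 73.9% ± 6.68 and 22.4% ± 5.17 (SD, n = 3). DSG3 accounted for nearly all of the rest, since DSG1 never passed 0.417%.

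DSC2 held 19.2% ± 1.24 (SD, n = 3) of the desmocollin FPKM in siC_DMSO and 64.4% ± 7.53 (SD, n = 3) in siYT_DMSO. With XMU-MP1 the shares were 13.2% ± 3.07 and 69.4% ± 11.4 (SD, n = 3). In both families the shares of the 6 control siRNA libraries and of the 6 knockdown libraries did not overlap. These shares restate the levels above and were not tested.

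**Figure D2:**
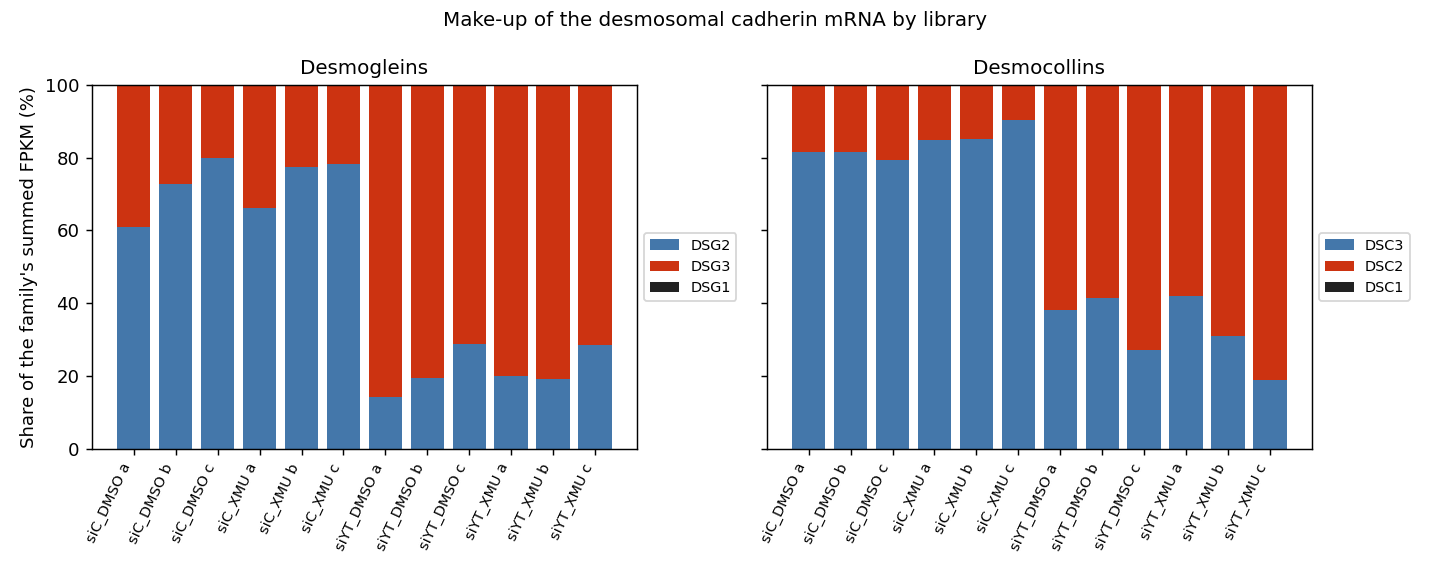
Share of each desmoglein (left) and desmocollin (right) in its family's summed FPKM, in percent, with one bar per library. DSG2 (blue, left) holds 61.1 to 79.8% in siC_DMSO and 14.3 to 28.7% in siYT_DMSO; DSC2 (red, right) holds 18.4 to 20.6% and 58.5 to 72.9%.

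The family totals behaved differently from the single genes. Summed desmoglein FPKM was 60.0 ± 7.24 (SD, n = 3) in siC_DMSO and 71.8 ± 10.8 in siYT_DMSO, and 47.8 ± 2.53 and 47.7 ± 5.04 in the XMU-MP1 groups. Summed desmocollin FPKM was 22.5 ± 2.66 (SD, n = 3) and 59.4 ± 1.51 in DMSO, and 19.6 ± 1.95 and 53.7 ± 10.5 with XMU-MP1. The ratio of desmoglein to desmocollin FPKM was thus 2.11 to 2.89 in the 6 libraries with control siRNA and 0.665 to 1.42 in the 6 with the knockdown. On TMM-scaled CPM, which is not per length, summed desmoglein was 306 ± 34.6 and 417 ± 90.3 CPM (SD, n = 3) in DMSO, and 258 ± 11.5 and 369 ± 71.1 CPM with XMU-MP1, where the groups did not overlap. The near-equal desmoglein totals with XMU-MP1 were thus not seen on CPM. The median log2 fold change of all genes in that comparison was -0.43 on log2(FPKM + 0.1) and 0.04 on counts. The totals and ratios were not tested.

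In the plaque, plakoglobin, the armadillo protein that binds both cadherin families and also takes part in adherens junctions, rose. JUP was at 397, 282 and 278 CPM in siC_DMSO and 1238, 1183 and 1447 CPM in siYT_DMSO, with no overlap and a log2 fold change of 2.01 (SE 0.28, adjusted p 0.000217, edgeR). With XMU-MP1 it was at 402, 385 and 204 CPM against 1103, 1685 and 1709 CPM, a log2 fold change of 2.18 (SE 0.28, adjusted p 0.000134, edgeR). Library c was the lowest control library in both arms.

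Desmoplakin, the link to keratin filaments, rose with the smallest error among the members. DSP was at 342, 329 and 313 CPM in siC_DMSO and 1333, 1021 and 855 CPM in siYT_DMSO, a log2 fold change of 1.71 (SE 0.18, adjusted p 3.10e-05, edgeR). The XMU-MP1 groups held 303, 334 and 285 CPM with control siRNA and 1026, 1109 and 1171 CPM with the knockdown, a log2 fold change of 1.84 (SE 0.18, adjusted p 2.14e-05, edgeR). Every knockdown library was above every control library.

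The plakophilins bind desmoplakin and help to cluster the cadherins. PKP3, the form found in most stratified and simple epithelia, was at 208, 191 and 192 CPM in siC_DMSO and 593, 577 and 539 CPM in siYT_DMSO, a log2 fold change of 1.53 (SE 0.29, adjusted p 0.00165, edgeR). With XMU-MP1 it was at 136, 121 and 92.3 CPM against 502, 716 and 261 CPM, a log2 fold change of 2.08 (SE 0.29, adjusted p 0.000233, edgeR). Library c of siYT_XMU was the lowest of the knockdown libraries, and the groups did not overlap in either arm.

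PKP1, a plakophilin of suprabasal keratinocytes, had no count in any control siRNA library. After the knockdown it was at 4.96, 3.60 and 3.92 CPM in DMSO and 2.93, 5.10 and 3.52 CPM in XMU-MP1, present in all 6 libraries. Its mean was at least 99.4-fold higher in DMSO and at least 73.2-fold higher in XMU-MP1 against a floor of 3 counts per control library, or 24.9-fold and 18.3-fold against 12 counts. The adjusted p was 4.79e-05 and 6.12e-05 (edgeR). Since PKP1 passed the filter only by being high after the knockdown, these values are no separate support for its rise. Per length its level stayed small, at 0.736 FPKM in siYT_DMSO beside 189.6 FPKM for PKP3.

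Ordered by FPKM, the siC_DMSO libraries ran from JUP (84.8 ± 18.5, SD, n = 3) and PKP3 (74.8 ± 4.04), which overlapped, through DSG2 (42.3 ± 0.794) and DSP (37.6 ± 1.84), which did not, to DSC3 (18.2 ± 2.40) and DSG3 (17.7 ± 7.98), which overlapped, and DSC2 (4.29 ± 0.263). In siYT_DMSO the order was JUP, PKP3, DSP, DSG3, DSC2, DSC3 and DSG2. Only DSC3 and DSG2, at 21.2 ± 4.85 and 14.7 ± 4.68 FPKM (SD, n = 3), overlapped there among neighbours in that order. By mean FPKM, DSG2 thus went from the highest of the desmosomal cadherins to the lowest of DSG2, DSG3, DSC2 and DSC3. The 10 genes together took 0.111 to 0.172% of all counts in the control siRNA libraries and 0.292 to 0.415% in the knockdown libraries.

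**Figure D3:**
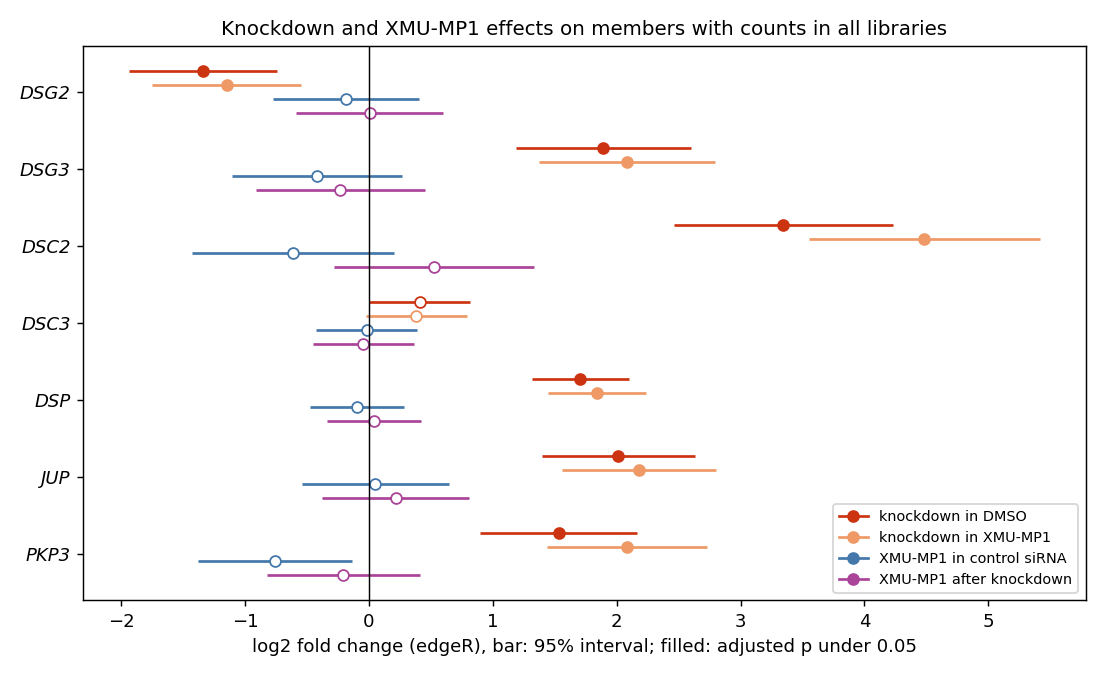
Log2 fold change with its 95% interval for the 7 members with counts in every library, for the knockdown in DMSO, the knockdown in XMU-MP1, XMU-MP1 in control siRNA and XMU-MP1 after the knockdown; filled circles have an adjusted p under 0.05. The knockdown effects run from -1.34 for DSG2 to 4.48 for DSC2 and are filled for all but DSC3, and all XMU-MP1 effects are open.

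The second comparison asked what 6 h of XMU-MP1 did. With control siRNA, none of the 9 tested members was called (edgeR quasi-likelihood test), against 9.26% of all genes called in either direction. DSG1 and PKP1, with no count in either group, could not be called. At so low a share, no call among so few genes does not set the members apart. At an unadjusted p under 0.05 there was 1, PKP3, beside 4222 of all 18143 genes tested. DESeq2 called that gene lower and limma voom called none.

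For PKP3 the siC_DMSO libraries held 208, 191 and 192 CPM and the siC_XMU libraries 136, 121 and 92.3 CPM, so all 3 libraries with XMU-MP1 lay below all 3 with DMSO. The log2 fold change was -0.76 (SE 0.28), with an adjusted p of 0.127 (edgeR) and of 0.0463 by DESeq2. It was 0.0138 without library c of siYT_XMU, which enters this contrast through the shared spread, and 0.0111 where edgeR was given the compared groups alone. DSC2 and DSG2 were also lower in every siC_XMU library, with log2 fold changes of -0.61 (95% interval -1.43 to 0.20) and -0.18 (95% interval -0.77 to 0.40), and neither was called. For DSG3, DSC3, DSP and JUP the groups overlapped, and the intervals were -1.10 to 0.27, -0.42 to 0.39, -0.48 to 0.29 and -0.54 to 0.64.

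After the knockdown, XMU-MP1 called no member in edgeR, DESeq2 or limma voom. None had an unadjusted p under 0.05 in edgeR, beside 4874 of all 18143 genes tested. Of all genes, 12.1% were called in either direction. All 9 members overlapped between siYT_DMSO and siYT_XMU. The share of all genes that overlap was not counted, for this or any other pair of groups, so overlap describes the members only. The narrowest intervals were those of DSP, -0.34 to 0.42, and DSC3, -0.45 to 0.36, while DSC2, at 0.53, had an interval of -0.28 to 1.34. These bounds do not show that XMU-MP1 left the genes unaltered.

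Whether the XMU-MP1 effect differed between the siRNA arms was tested as an interaction. It was called for none of the members (edgeR), against 2.59% of all genes. None had an unadjusted p under 0.05, beside 3324 of all 18143 genes tested. DSC2 came nearest, with an interaction of 1.14 on the log2 scale (95% interval -0.01 to 2.29, unadjusted p 0.0512, adjusted p 0.276, edgeR). Without library c of siYT_XMU that of DSC2 was 0.49 (adjusted p 0.433, edgeR), and PKP3 came nearest, at 0.86 (unadjusted p 0.00568, adjusted p 0.0710) against 0.55 (adjusted p 0.510) with all libraries. DSG1 and PKP1 have no XMU-MP1 effect in the control arm, where both groups are at 0, and so no interaction value. The knockdown comparisons in DMSO and in XMU-MP1 use different libraries, whereas each knockdown comparison shares a group with an XMU-MP1 comparison.

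The pattern of each member over the 12 libraries was set beside those of 8195 genes with a mean of at least 5 FPKM in some group, by the root mean square difference of log2 CPM after centring. Closest to JUP was CDH1 (0.222), the gene of E-cadherin, and CDH1 was second for DSG3 (0.319) after TMEM154 (0.231). For DSP the closest was NBEAL2 (0.185) and for PKP3 SPINT1 (0.204), which encodes an epithelial inhibitor of serine proteases. DSG2 was closest to CASP2 (0.144), DSC2 to LRP1 (0.321), DSC3 to SEC16A (0.194), PKP1 to VSIG10L (0.351) and DSG1 to KRT10 (0.962). Without library c of siYT_XMU the first gene was kept for DSG2, DSG3 and PKP1 and changed for the others. The nearest genes were then ADIRF and CKMT1B for JUP and TMEM154 and PPP1R14B-AS1 for DSG3, so CDH1 was lost for both. Among the members themselves DSP and JUP were nearest to each other (0.355), then DSG3 and DSP (0.361) and DSG3 and JUP (0.395). All libraries enter every such distance, so these values describe and were not tested.

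Other genes of the desmosome and its cornified form were described from a list of 7. Of 6 tested, 4 rose and 1 fell after the knockdown in DMSO and likewise in XMU-MP1, with a median log2 fold change of 2.39 and 2.57, beside 0.02 and 0.04 over all genes. Of all genes, 16.1% were called higher and 16.0% lower in DMSO, and 17.7% and 18.6% in XMU-MP1. The same shares stand beside the knockdown counts of the lists that follow. Members and lists were chosen with earlier results of these data known, so their counts beside these shares describe them and are no test. On the log2 scale, PERP, a membrane protein of desmosomes, rose by 2.62 (SE 0.49, adjusted p 0.00153, edgeR) in DMSO. The plakins PPL and EVPL, periplakin and envoplakin of the cornified envelope, rose by 2.69 and 2.15, and CDSN, corneodesmosin, rose by 6.09. PKP4, a relative of the plakophilins found also at adherens junctions, fell by 1.79 (SE 0.19, adjusted p 3.04e-05, edgeR), and PKP2, the plakophilin of simple epithelia and heart, was not called at -0.56. EVPL was the one gene of this list called after XMU-MP1 in control siRNA, at -1.10 (adjusted p 0.00516, edgeR). Its rise after the knockdown was 4.45-fold in DMSO and 9.33-fold in XMU-MP1, an interaction of 1.07 (adjusted p 0.0582, edgeR) that was called without library c of siYT_XMU, at 1.21 (adjusted p 0.0216). For CDSN the rises were 68.1-fold and 269-fold, with an interaction of 1.98 (unadjusted p 0.00892, adjusted p 0.117, edgeR).

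**Figure D4:**
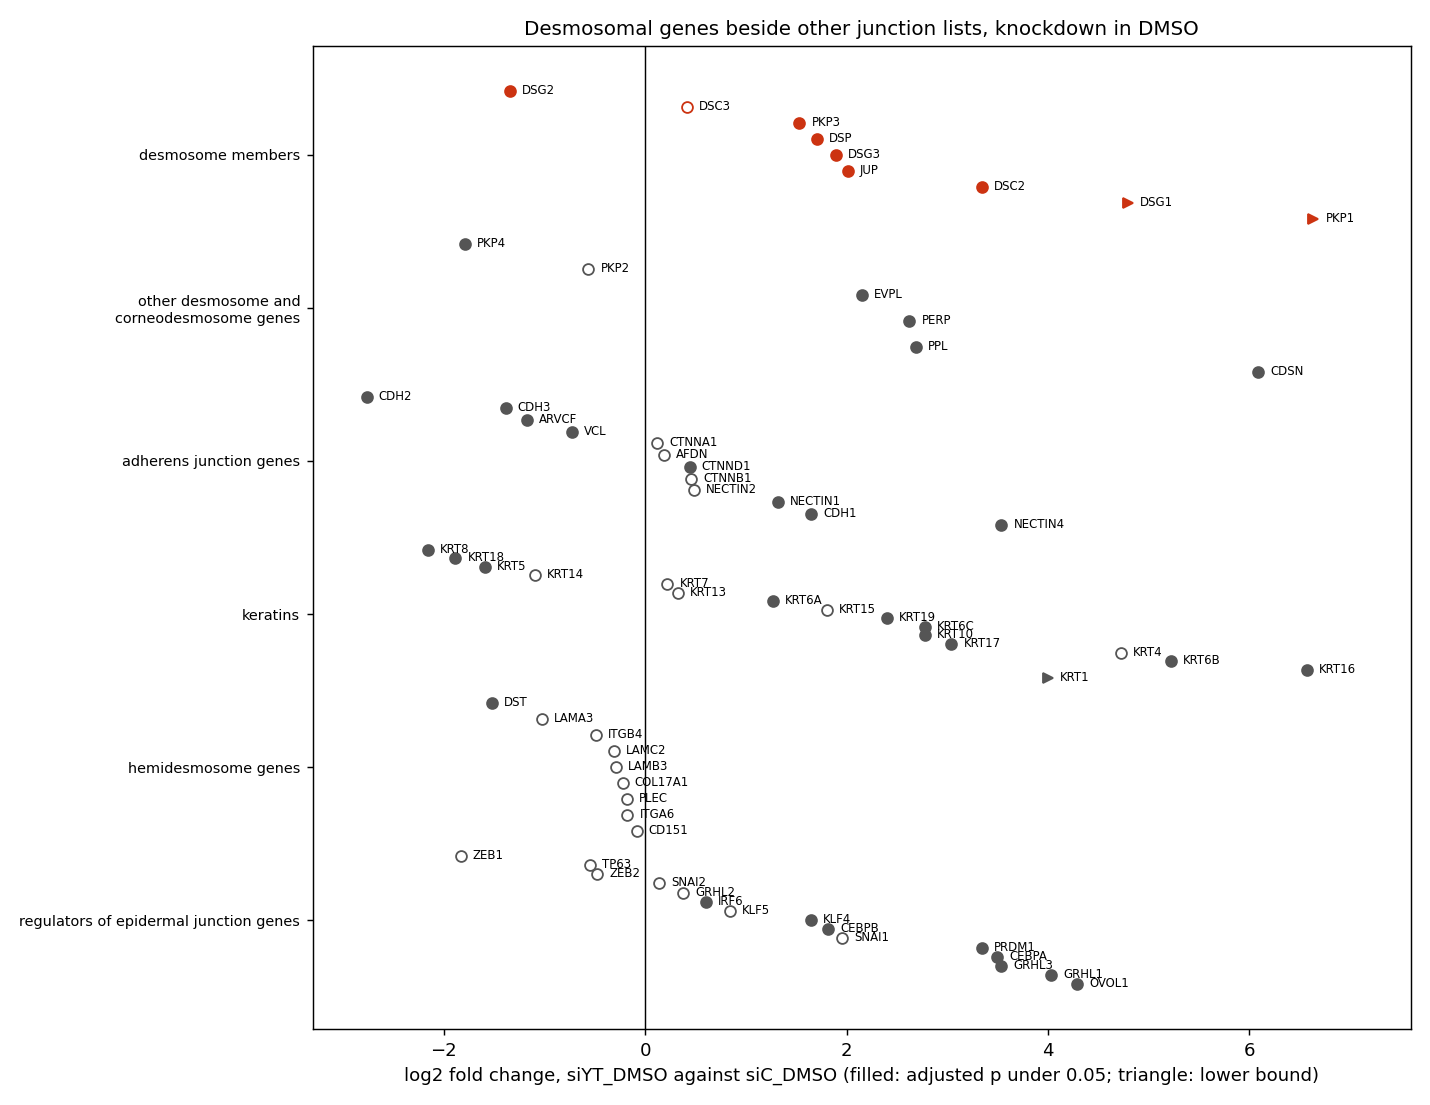
Log2 fold change between siYT_DMSO and siC_DMSO for the desmosomal genes (red) and 5 lists of related genes (grey), one symbol per tested gene; filled symbols have an adjusted p under 0.05 and triangles are lower bounds for genes with no count in siC_DMSO. Desmosomal genes lie mostly to the right of 0 with DSG2 to the left, adherens junction genes and keratins lie on both sides, and the 9 hemidesmosome genes lie to the left of 0, with DST alone filled.

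Adherens junction genes went both ways. In DMSO 4 of 12 rose and 4 fell, and in XMU-MP1 4 rose and 3 fell, with medians of 0.31 and 0.10. On the log2 scale CDH1 rose by 1.65 in DMSO and NECTIN4 by 3.54, whereas CDH2 (N-cadherin) fell by 2.77 and CDH3 (P-cadherin) by 1.39. Of the 9 hemidesmosome genes, which anchor cells to the basement membrane, DST fell by 1.52 in DMSO and none was called in XMU-MP1 (edgeR, 1 at an unadjusted p under 0.05, beside 8347 of all 18143 genes), with medians of -0.29 and 0.01. A single call among 9 is no more than the share of all genes called lower in DMSO. Without library c of siYT_XMU 1 of the 9 was called lower there.

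Keratins, the filaments that desmoplakin holds, rose in 8 and fell in 3 of 16 tested genes in DMSO and rose in 11 and fell in 3 in XMU-MP1, with median log2 fold changes of 2.10 and 3.29. KRT1, a keratin of suprabasal epidermis, had no count in any control siRNA library and could only pass the filter by being high after the knockdown, and without it 7 and 10 rose. Without library c of siYT_XMU the counts in XMU-MP1 were 12 higher and 2 lower. In DMSO KRT16, a keratin of activated keratinocytes, rose by 6.57 and KRT17 by 3.04, while the simple epithelial pair KRT8 and KRT18 fell by 2.15 and 1.88 and the basal KRT5 fell by 1.59. Other simple and basal keratins did not share that fall. KRT19, at a mean of 3.23 CPM in siYT_DMSO, rose by 2.40, and KRT7 (0.22), KRT14 (-1.09) and KRT15 (1.80) were not called. In XMU-MP1 KRT5, KRT8 and KRT18 fell too, KRT14 was not called, and KRT7, KRT15 and KRT19 rose by 1.34, 3.47 and 3.12. KRT6A, KRT6B and KRT6C rose as well, but they are near-identical copies between which the counting could divide reads.

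Of the 15 regulators known to act on epidermal junction genes, 8 rose in DMSO and 7 in XMU-MP1, and none fell in either, with median log2 fold changes of 1.65 and 1.12. Without library c of siYT_XMU the counts in XMU-MP1 were 7 higher and 1 lower, with a median of 0.57. On the log2 scale in DMSO, the Grainyhead factors GRHL1 and GRHL3 rose by 4.03 and 3.54, and OVOL1 by 4.29, with GRHL2 not called at 0.38. XMU-MP1 also moved several of these regulators. After the knockdown 6 of the 15 fell with it, among them GRHL1 (log2 fold change -1.40), GRHL2 (-1.68) and GRHL3 (-4.66). Of all 18143 genes, 1437 were called lower in that comparison. In control siRNA GRHL1 rose (0.89) and 4 fell, among them GRHL3 (-3.78) and TP63 (-3.08), beside 725 of all genes called higher and 955 lower. The interaction was called for GRHL1 (-2.29), PRDM1 (-2.57) and CEBPB (-1.74), against 2.59% of all genes. Whether these changes bear on the desmosomal genes was not tested.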

How the data were processed

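RNA-seq of 12 MCF10A libraries was analysed from 1 table. It lists 46931 genes. Per the file headers, the authors deposited a count (a whole number, unscaled) and an FPKM value (fragments per kilobase of transcript, scaled to depth) for each gene and library. FPKM entries of 1e-04, which mark genes without a count, were read as 0. The submitters' processing notes name cutadapt, FastQC, HISAT2, StringTie, edgeR and GRCh38.p13, while versions, roles and the counting method are not given in the sources used here.

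Counts were tested in R 4.3.3 with edgeR 4.0.16: filterByExpr by group kept 18143 genes, TMM scaling was used, and 4 group means were fitted by quasi-likelihood to all 12 libraries (8 residual degrees of freedom, common dispersion 0.232). A gene is called at a two-sided Benjamini-Hochberg adjusted p under 0.05 over all genes tested. SE was derived from the log2 fold change and the F statistic, and intervals are 95%. The model was tested on simulated data. Floors of 3 or 12 counts for a count of 0 cover counting error only. DESeq2 1.42.0 and limma 3.58.1 were alternatives, with other scalings, no filter, the compared groups alone, a replicate block and each library left out.

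The members, the lists of related genes and the motifs were chosen with earlier results of these data known. Similar genes are the nearest by root mean square difference of centred log2 CPM (prior count 2) among genes with a mean of at least 5 FPKM in some group. Genes of the lists were named for their role or size of change after values were seen. The promoter run in capitals was found after the sequences were seen. Bounds without single libraries, family totals on CPM, list counts without library c of siYT_XMU and the keratin count without KRT1 were added after seeing the data.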

Additional observations from a re-analysis of the deposited data

How the results depend on the processing

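Knockdown counts moved little: 6 to 8 members were called higher and 1 lower in each arm over all settings. The 6 came from FPKM, where DSG1 lost its call (adjusted p 0.0931 and 0.138 in DMSO, 0.153 and 0.285 in XMU-MP1, for a pseudocount of 0.1 and 1), and, in XMU-MP1, from the compared groups alone, where DSG1 failed the filter. The 8 added DSC3, called in DMSO without library c of siYT_DMSO and in XMU-MP1 with upper quartile scaling (0.56, adjusted p 0.0471). With the replicate block the counts were 7 higher and 1 lower in both arms and 0 for XMU-MP1 and the interaction, so it changed no call. The letters were not taken as pairs, since 2 of 18 residual correlations within a letter were over 0.1 (range -0.02 to 0.17), but 11 of 12 libraries were most like those of their own letter, a hint of pairing from the data and not the design. For XMU-MP1 in control siRNA, 1 member (PKP3) was called lower with DESeq2, with the compared groups alone and without library c of siYT_XMU, so leaving out libraries gave 0 to 1. Uncalled log2 values near 0 changed sign. On FPKM (pseudocount 0.1, then 1) DSC3 after knockdown in XMU-MP1 was -0.14 and -0.13 and JUP after XMU-MP1 in control siRNA was -0.073 and -0.072. For XMU-MP1 after knockdown these were -0.44 and -0.41 for DSG2, -0.060 and -0.057 for DSC2, -0.35 and -0.34 for DSP and -0.22 and -0.22 for JUP. For the interaction they were -0.17 and -0.15 for DSG2, -0.17 and -0.18 for DSG3, -0.17 and -0.17 for DSP and -0.14 and -0.14 for JUP. Voom gave 0.64 for DSG1 and -0.22 for DSG2 after knockdown and -0.034 for the interaction of DSG2. The replicate block gave -0.014 for DSG2 after knockdown. For DSC3, size factors, upper quartile and DESeq2 gave 0.026, 0.13 and 0.021 after knockdown and 0.053, 0.13 and 0.049 for the interaction, and the compared groups alone gave 0.0056 for XMU-MP1 in control siRNA. Upper quartile gave 0.051 for PKP1 after knockdown. Leaving out each library gave, for XMU-MP1 in control siRNA, -0.12 to 0.055 for DSC3 and -0.11 to 0.30 for JUP. After knockdown it gave -0.91 to 1.24 for DSG1, -0.40 to 0.28 for DSG2, -0.36 to 0.019 for DSG3, -0.12 to 0.82 for DSC2, -0.23 to 0.050 for DSC3, -0.10 to 0.22 for DSP, -0.38 to 0.063 for PKP1 and -0.58 to 0.094 for PKP3. For the interaction it gave -0.22 to 0.46 for DSG2, -0.22 to 0.46 for DSG3, 0.49 to 1.44 for DSC2, -0.21 to 0.074 for DSC3, -0.0038 to 0.32 for DSP, -0.090 to 0.34 for JUP and 0.18 to 0.86 for PKP3. The cause of these sign changes was not tested. FPKM with a pseudocount of 0.1 moved the median of all genes after knockdown in XMU-MP1 to -0.43 from 0.04 and the calls to 1717 higher and 5387 lower, from 3219 and 3381. Upper quartile moved it to 0.20. Depth limits DSG1, DSC1 and PKP1 most, above all in library c of siYT_XMU, where 3 counts are 0.622 CPM. No protein table was used here, so no protein comparison or scaling by coding length was run.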
